A study of Mus musculus with 4 samples.

Results

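The genes described here make, store, retrieve or receive dopamine and histamine in the hypothalamus. They are the synthesis enzymes *Th*, *Ddc* and *Hdc*, the transporters *Slc18a2* and *Slc6a3*, and the dopamine receptors *Drd1* and *Drd2*. All 7 were taken by symbol after the RefSeq transcripts of each gene had been summed, out of 16339 genes with a name, and all 7 had enough counts to be tested. RNA sequencing was performed on the hypothalamus of male C57BL/6 mice fed a western diet (WD) for 12 weeks from the age of 8 weeks. WD was a 60% fat diet given with a 30% sucrose solution, and both groups received it. WT WD (2 libraries) were wild-type littermates, and *Tas1r3*-/- WD (2 libraries) lacked *Tas1r3*, which encodes a subunit of the sweet and umami taste receptors, in every tissue, as a conventional knockout from crosses of heterozygous parents. The comparison asks whether loss of *Tas1r3* goes with altered hypothalamic gene expression under WD.

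Dopamine is made from tyrosine in 2 steps, by tyrosine hydroxylase (TH), which is rate-limiting, and then aromatic L-amino acid decarboxylase (DDC). Histamine is made from histidine by histidine decarboxylase (HDC) alone. The vesicular monoamine transporter VMAT2, encoded by *Slc18a2*, loads both amines into synaptic vesicles, and the dopamine transporter DAT, encoded by *Slc6a3*, takes released dopamine back up. In the hypothalamus, dopamine neurons of the arcuate nucleus restrain prolactin release from the pituitary, and histamine neurons of the tuberomammillary nucleus promote wakefulness. DRD1 couples to stimulatory G proteins and DRD2 to inhibitory ones, and DRD2 is also the receptor through which dopamine acts on pituitary lactotrophs.

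The estimated counts of each library summed to between 5874782 and 6273772. *Tas1r3*, the targeted gene, was at 6.00 and 4.44 CPM (estimated counts of a gene scaled to library size) in WT WD replicates 1 and 2, and at 1.12 and 1.23 CPM in *Tas1r3*-/- WD replicates 1 and 2. The log2 fold change of the targeted gene was -2.13, with a standard error (SE) of 0.42, and it was not called over all genes tested (edgeR quasi-likelihood test, adjusted p = 0.757). WT WD replicate 2 stood apart from the other libraries in the markers of its labelled tissue. Of 15 hypothalamic neuropeptide genes, led by *Pmch*, *Avp* and *Pomc*, 14 were lowest in that library, and their summed level was 129 CPM there against 1460 to 2085 CPM in the other libraries. Hypothalamic transcription factors, led by *Six3*, *Otp* and *Lhx9*, were lowest in it for 9 of 10. The exception was *Lhx9*, which was highest in it, at 94.1 CPM against 3.09 to 9.27 CPM in the other libraries. *Nkx2-1*, a factor that defines much of the hypothalamus, had 0 counts in it, which allows up to 0.487 CPM, against 28.7 to 41.5 CPM elsewhere. Conversely, all 10 thalamus markers, led by *Calb2*, *Slc17a6* and *Ntng1*, were highest in it, with a sum of 2681 CPM against 598 to 791 CPM. Choroid plexus markers, led by *Enpp2*, *Ttr* and *Clic6*, summed to 1133 CPM there against 176 to 201 CPM, and 6 of 8 were highest in it. *Ttr* alone was at 677 CPM there, whereas *Clic6*, at 33.2 CPM, lay within the 30.8 to 40.8 CPM of the other libraries. Those of cortex and hippocampus, led by *Rasgrf2*, *Slc17a7* and *Prox1*, were mixed, with 4 of 9 lowest and 3 highest in it, and *Slc17a7* stood out at 265 CPM against 2.41 to 11.9 CPM. The part of these tissues in the results below was not tested, and each genotype difference of the 7 genes is given with and without WT WD replicate 2.

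Of the 7 genes, 5 were also low in that library, and they are the genes of synthesis, storage and reuptake. The stretches around their RefSeq transcription starts are shown first because these genes moved together across the libraries. RefSeq windows of the assembly GRCm38.p6 were given for all 7 genes (9 windows), and each matched GRCm39 exactly once. The printed part of each window runs from 120 bases before the start to 20 bases from it, 5′ to 3′ on the strand of the gene. Capitals mark the matches of the motifs searched on both strands, which were the cyclic AMP response element TGACGTCA, the GC box GGGCGG, the letters TATAAA and the NR4A site AAAGGTCA.

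*Th*, chr7:142453713-142453852 of GRCm39, minus strand, with the cyclic AMP response element in capitals, and *Slc18a2*, chr19:59249190-59249329, plus strand, with a GC box on each strand and the cyclic AMP response element:
Th: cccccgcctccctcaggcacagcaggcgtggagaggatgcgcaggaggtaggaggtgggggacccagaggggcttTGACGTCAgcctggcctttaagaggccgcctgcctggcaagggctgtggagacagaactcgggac
Slc18a2: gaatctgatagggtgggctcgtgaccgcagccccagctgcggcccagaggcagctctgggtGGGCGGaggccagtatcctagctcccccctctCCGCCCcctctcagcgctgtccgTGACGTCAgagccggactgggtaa

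*Hdc*, chr2:126460579-126460718, minus strand, with a GC box, *Slc6a3*, chr13:73684746-73684885, plus strand, with 3 GC boxes, and the upstream window of *Ddc*, chr11:11848125-11848264, minus strand, where the NR4A letters and the TATAAA letters lie on the opposite strand and overlap:
Hdc: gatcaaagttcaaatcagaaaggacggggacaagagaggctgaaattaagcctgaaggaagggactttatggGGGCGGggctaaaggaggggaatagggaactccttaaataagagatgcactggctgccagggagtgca
Slc6a3: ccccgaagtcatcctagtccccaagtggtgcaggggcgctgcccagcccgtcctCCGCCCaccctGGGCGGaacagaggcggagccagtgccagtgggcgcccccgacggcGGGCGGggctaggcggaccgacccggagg
Ddc: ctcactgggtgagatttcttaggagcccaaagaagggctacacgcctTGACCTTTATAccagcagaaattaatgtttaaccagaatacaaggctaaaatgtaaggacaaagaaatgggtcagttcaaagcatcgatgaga

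The cyclic AMP response element was found in *Th* and *Slc18a2* among the 7 genes, and in 1.79% of all 32851 RefSeq windows. In *Th* it begins 45 bases before the start, and in *Slc18a2* it begins 4 bases before the start and runs across it. The NR4A letters were found in *Ddc* alone of the 7 genes and in 1.51% of all windows. The TATAAA letters were found in *Ddc* alone and in 13.6%, and a GC box in 6 of the 7 genes (all but *Ddc*) and in 35.7%. In *Ddc* the NR4A and TATAAA letters lie in the upstream window only. Its downstream window, chr11:11840359-11840658, minus strand, is not printed and held none of the motifs searched. Which of these starts the counted *Ddc* transcripts use was not tested. These matches are descriptions of the letters only, and no binding was measured.

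*Th* (chr7:142443466-142484865, minus strand, GENCODE M39) encodes the enzyme that sets the rate of catecholamine synthesis. It was at 57.4 CPM in WT WD replicate 1 and 16.8 CPM in WT WD replicate 2, and at 52.3 and 58.6 CPM in *Tas1r3*-/- WD replicates 1 and 2. The *Tas1r3*-/- WD values lay on either side of WT WD replicate 1, so the groups overlapped, and WT WD replicate 2 had 29.9% of the mean of the other libraries. The means were 37.1 ± 28.8 CPM in WT WD and 55.4 ± 4.49 CPM in *Tas1r3*-/- WD (SD, n = 2 each). The log2 fold change was 0.58 (SE 0.56, 95% interval -0.87 to 2.03, edgeR adjusted p = 0.797). Without WT WD replicate 2 it was -0.05 (95% interval -0.35 to 0.25), with the remaining WT WD library assumed to vary like the *Tas1r3*-/- WD libraries.

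*Ddc* (chr11:11762602-11848150, minus strand) encodes the second enzyme of dopamine synthesis, which serotonin neurons also use. It was at 50.7 and 14.0 CPM in WT WD replicates 1 and 2, and at 45.7 and 46.4 CPM in *Tas1r3*-/- WD replicates 1 and 2. Here too a single library was low, at 29.4% of the mean of the others, and WT WD replicate 1 was the highest. The log2 fold change between the genotypes was 0.51 (SE 0.58, edgeR adjusted p = 0.822). Leaving out WT WD replicate 2 gave -0.14 (95% interval -0.44 to 0.16). The RefSeq transcript NM_016672 carried 98.3 and 91.8% of the *Ddc* counts in the WT WD replicates and 97.5 and 97.0% in the *Tas1r3*-/- WD replicates. The other transcript had between 5.08 and 8.11 estimated counts in each library, so its share was highest where the gene was lowest.

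*Th* and *Ddc* kept the same balance in every library. Of the counts of the pair, *Ddc* made up 46.9 and 45.5% in WT WD replicates 1 and 2, against 46.6 and 44.2% in *Tas1r3*-/- WD replicates 1 and 2. The 95% Wilson intervals, which cover counting error only, overlapped throughout, and the interval of WT WD replicate 2 reached from 38.5 to 52.6%. Both enzymes of dopamine synthesis were thus lower by nearly the same factor in WT WD replicate 2, 3.35-fold for *Th* and 3.41-fold for *Ddc*. In bulk tissue, fewer cells of a type and less RNA per cell cannot be told apart.

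*Slc18a2* (chr19:59249238-59284695, plus strand), the VMAT2 gene that every monoamine neuron uses, showed the closest agreement among the other libraries. It was at 39.8 and 7.40 CPM in WT WD replicates 1 and 2, and at 41.0 and 38.3 CPM in *Tas1r3*-/- WD replicates 1 and 2. The coefficient of variation over the libraries other than WT WD replicate 2 was 3.43%, against 6.51% from counting alone. WT WD replicate 2 stood 5.37-fold below their mean. Of the 7 genes this alone had a fold change of at least 1.5 between the genotypes, a size reached upward by 5.17% and downward by 6.43% of all genes tested. *Th*, at a log2 fold change of 0.58, lay just below that size. The log2 fold change of *Slc18a2* was 0.75 (SE 0.73, edgeR adjusted p = 0.798). Leaving out WT WD replicate 2 gave -0.0021 (95% interval -0.33 to 0.33).

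*Slc6a3* (chr13:73684866-73726801, plus strand) encodes DAT and was the gene with the fewest counts. The WT WD libraries held 35 and 4 counts of it in replicates 1 and 2, and the *Tas1r3*-/- WD libraries 29 and 23, which is 6.00, 0.658, 4.65 and 4.02 CPM. The level in WT WD replicate 2 was near the limit of 0.487 CPM that a count of 0 allows there. The log2 fold change was 0.39 (SE 0.91, 95% interval -1.96 to 2.74, edgeR adjusted p = 0.921), the widest interval of the 7 genes. Without WT WD replicate 2 it was -0.46 (95% interval -1.42 to 0.49), so neither a marked loss nor a small gain could be told from no change at this depth.

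Relative to *Th*, both transporters had their lowest share in WT WD replicate 2. *Slc18a2* made up 40.9, 30.6, 44.0 and 39.5% of its sum with *Th* in WT WD replicates 1 and 2 and *Tas1r3*-/- WD replicates 1 and 2. The 95% Wilson interval of WT WD replicate 2, 23.7 to 38.5%, overlapped that of *Tas1r3*-/- WD replicate 2, 35.5 to 43.7%. *Slc6a3* made up 9.46, 3.77, 8.17 and 6.42% of its sum with *Th* in the same order, and the interval of WT WD replicate 2 was 1.48 to 9.30%. The order of the libraries was the same as for the levels, but the intervals of WT WD replicate 2 overlapped at least 1 other library in both shares.

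**Figure D1:**
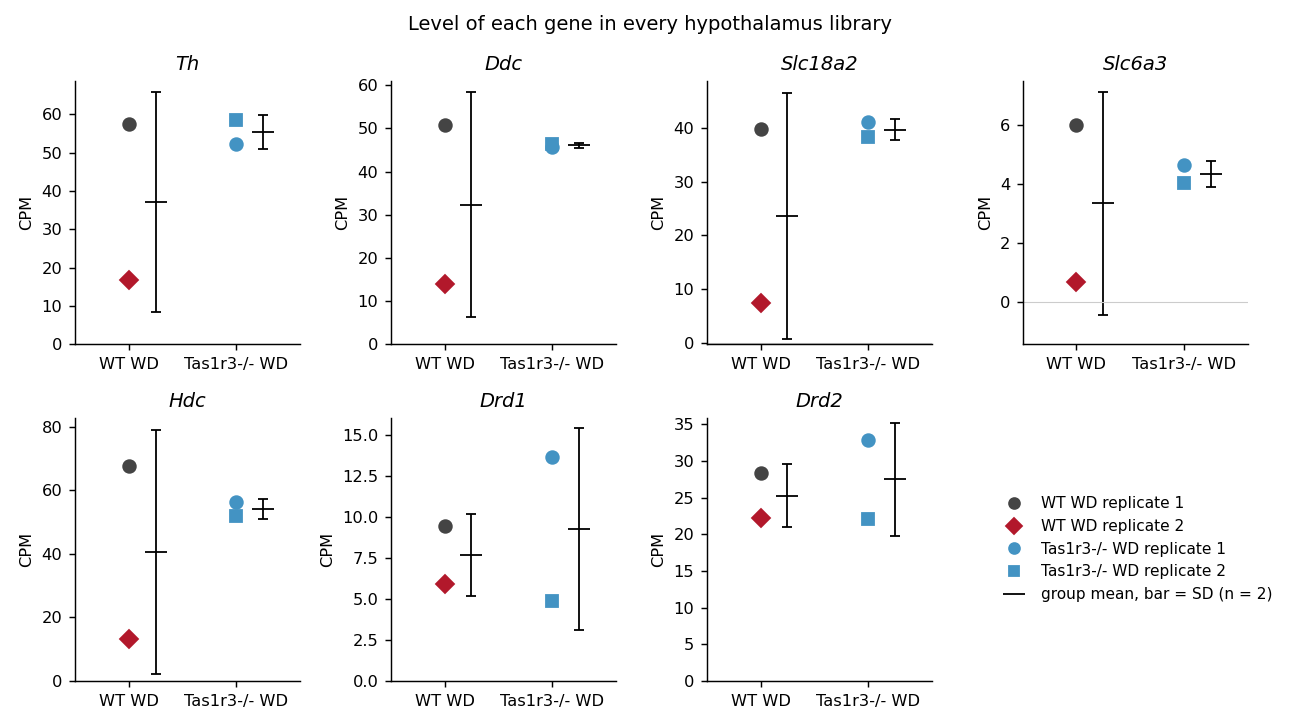
CPM (vertical axis) of each of the 7 genes in the WT WD and Tas1r3-/- WD libraries, 1 point a library, with the group mean and SD (n = 2) as a black bar beside the points. WT WD replicate 2, the diamond, lies far below the other libraries for Th, Ddc, Slc18a2, Slc6a3 and Hdc, while for Drd1 and Drd2 it lies close to Tas1r3-/- WD replicate 2.

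*Hdc* (chr2:126435558-126461318, minus strand), the histamine enzyme that in brain marks tuberomammillary neurons, followed the genes of dopamine neurons. It was at 67.7 and 13.3 CPM in WT WD replicates 1 and 2, and at 56.4 and 51.8 CPM in *Tas1r3*-/- WD replicates 1 and 2. Both *Tas1r3*-/- WD libraries lay between the WT WD libraries, with means of 40.5 ± 38.5 CPM in WT WD and 54.1 ± 3.28 CPM in *Tas1r3*-/- WD (SD, n = 2 each). The log2 fold change was 0.42 (SE 0.71, edgeR adjusted p = 0.886). Without WT WD replicate 2 it was -0.32 (95% interval -0.60 to -0.04), and the adjusted p of edgeR was 0.314, the lowest of the 7 genes in that fit and above the threshold. *Hdc* thus had its highest level in WT WD replicate 1, and its spread over the libraries other than WT WD replicate 2 was a coefficient of variation of 14.0%, where counting alone gives 5.36%. In the fit without WT WD replicate 2, hypothalamic neuropeptides also had a negative median log2 fold change, -0.45.

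The balance of *Hdc* and *Slc18a2* lay within a narrow range, with both WT WD shares above both *Tas1r3*-/- WD shares. *Hdc* made up 63.0 and 64.3% of their sum in WT WD replicates 1 and 2, against 57.9 and 57.5% in *Tas1r3*-/- WD replicates 1 and 2. Against *Th*, *Hdc* made up 54.1, 44.3, 51.9 and 46.9% in the same order. Mast cells are another source of *Hdc*. Of 8 mast cell markers 2 were listed, *Kit* and *Hpgds*, which neurons and glia of the brain also express, with a sum of 6.08 CPM in WT WD replicate 2 and 36.0 to 51.8 CPM in the others. These 2 were, like *Hdc*, lowest in WT WD replicate 2. The proteases *Cpa3*, *Mcpt4*, *Tpsb2* and *Cma1* were not among the genes analysed here, each of which has a transcript with at least 10 counts over the libraries. The part of mast cells in *Hdc* was not tested.

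**Figure D2:**
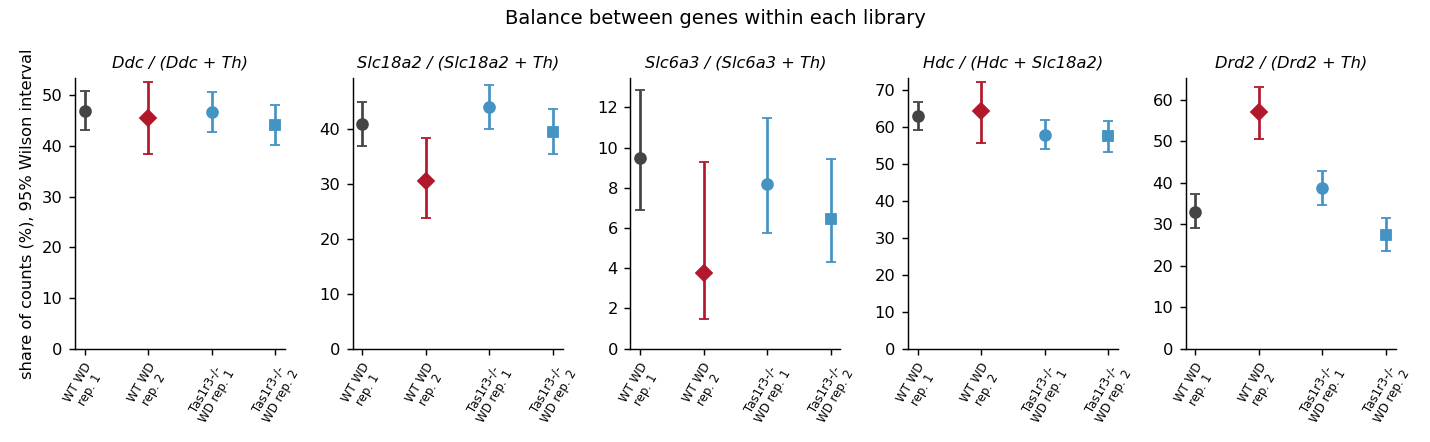
Share of counts (%, vertical axis) that the first gene has in the sum of 2 genes, within each library, with 95% Wilson intervals as bars. The Ddc share stays between 44.2 and 46.9% in the 4 libraries, whereas the Drd2 share of Drd2 and Th is 57.0% in WT WD replicate 2 and 27.3 to 38.6% in the others.

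*Drd1* (chr13:54204872-54209760, minus strand), the D1 receptor gene, followed another order of libraries. It was at 9.43 and 5.92 CPM in WT WD replicates 1 and 2, and at 13.6 and 4.90 CPM in *Tas1r3*-/- WD replicates 1 and 2. The highest and the lowest value were both in *Tas1r3*-/- WD, so the groups overlapped fully. Means were 7.67 ± 2.48 CPM in WT WD and 9.26 ± 6.17 CPM in *Tas1r3*-/- WD (SD, n = 2 each), with a log2 fold change of 0.28 (SE 0.56, edgeR adjusted p = 0.904). Leaving out WT WD replicate 2 gave -0.01 and leaving out *Tas1r3*-/- WD replicate 1 gave -0.64, so its direction rested on those libraries.

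The counts of *Drd1* were divided between the RefSeq transcripts NM_001291801 and NM_010076. NM_001291801 had 29.1 and 55.6% of them in WT WD replicates 1 and 2, against 40.0 and 64.3% in *Tas1r3*-/- WD replicates 1 and 2. Its estimated counts were 16.3, 19.9, 33.6 and 18.4 in that order, whereas those of NM_010076 were 38.7, 16.1, 51.4 and 9.65. NM_010076 made up 70.9% in WT WD replicate 1 and 60.0% in *Tas1r3*-/- WD replicate 1, the libraries with most *Drd1*. In replicate 2 of WT WD and of *Tas1r3*-/- WD it made up 44.4 and 35.7%. Its share did not strictly follow the level, since *Drd1* was highest in *Tas1r3*-/- WD replicate 1. With 28 to 85 counts of the gene in a library, the Wilson intervals were wide and cover counting error only. For NM_001291801 they were, for example, 18.8 to 42.1% in WT WD replicate 1 and 45.8 to 79.3% in *Tas1r3*-/- WD replicate 2.

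*Drd2* (chr9:49251654-49319477, plus strand), the D2 receptor gene, differed least between the libraries. It was at 28.3 and 22.2 CPM in WT WD replicates 1 and 2, and at 32.9 and 22.1 CPM in *Tas1r3*-/- WD replicates 1 and 2. WT WD replicate 2 and *Tas1r3*-/- WD replicate 2 thus had nearly the same level. The means were 25.2 ± 4.31 and 27.5 ± 7.65 CPM (SD, n = 2 each), with a log2 fold change of 0.12 (SE 0.26, 95% interval -0.55 to 0.80, edgeR adjusted p = 0.910). It turned to -0.04 when WT WD replicate 2 was left out and to -0.20 when *Tas1r3*-/- WD replicate 1 was.

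Within a library, the receptor and the synthesis enzyme parted in WT WD replicate 2. *Drd2* made up 33.0% of the counts of *Drd2* and *Th* in WT WD replicate 1 (95% Wilson interval 29.0 to 37.2%), 38.6% in *Tas1r3*-/- WD replicate 1 (34.6 to 42.8%) and 27.3% in *Tas1r3*-/- WD replicate 2 (23.5 to 31.6%). In WT WD replicate 2 it made up 57.0% (50.6 to 63.1%), and this interval lay above all of the others. *Drd1* made up 25.0, 21.1, 29.3 and 18.2% of the counts of both receptors in WT WD replicates 1 and 2 and *Tas1r3*-/- WD replicates 1 and 2.

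Both receptor genes were highest in *Tas1r3*-/- WD replicate 1, as was *Slc18a2*, and 22.3% of all genes tested were highest there. *Drd1* was 1.45 times and *Drd2* 1.16 times the next library. The summed level of 10 striatum markers, led by *Penk*, *Rgs9* and *Pde10a*, was 567 CPM in *Tas1r3*-/- WD replicate 1, against 418 and 292 CPM in WT WD replicates 1 and 2 and 401 CPM in *Tas1r3*-/- WD replicate 2, and 7 of the 10 were highest in it. *Adora2a*, which in the striatum marks the neurons with *Drd2*, was at 11.4 CPM in *Tas1r3*-/- WD replicate 1 and at 1.71 to 2.96 CPM in the others. It is named, after its values were seen, because it shared its highest library with the receptors. Among the other libraries its order differed from theirs, with its lowest value in WT WD replicate 1.

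Markers of the anterior pituitary, whose lactotrophs carry *Drd2*, also stood apart in that library. Their sum was 1459 CPM in *Tas1r3*-/- WD replicate 1 and 2.80 to 17.5 CPM elsewhere, and all 9 were highest there. *Gh*, the growth hormone gene, was at 760 CPM and *Prl*, the prolactin gene, at 498 CPM, against at most 12.2 and 1.37 CPM in the other libraries, and *Cga*, the common subunit of pituitary glycoprotein hormones, was at 135 and at most 0.857 CPM. The part of striatal or pituitary tissue in the levels of *Drd1* and *Drd2* was not tested.

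**Figure D3:**
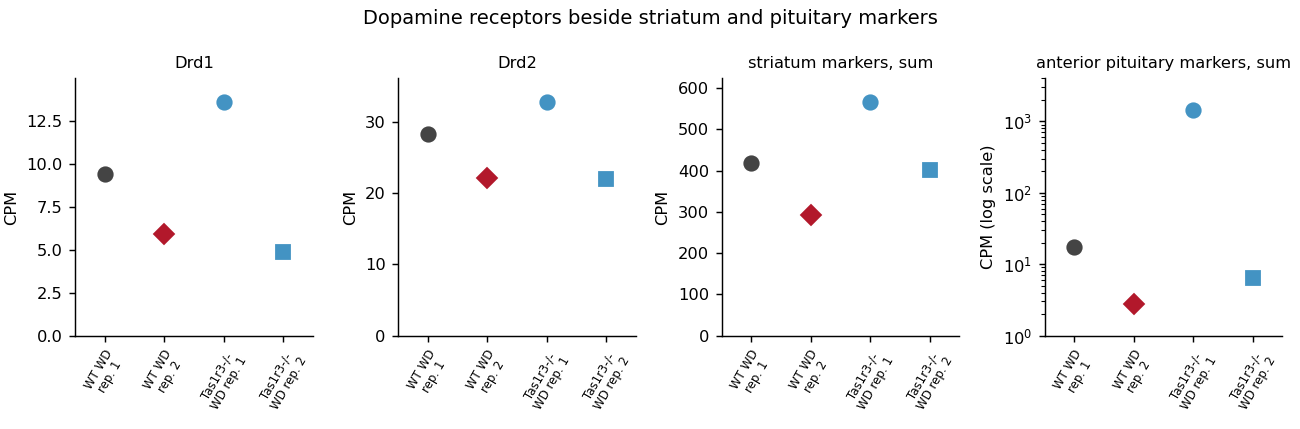
CPM of Drd1, of Drd2, and the summed CPM of 10 striatum and 9 anterior pituitary markers (vertical axes, the last on a log scale) in the 4 libraries, 1 point a library. In all 4 panels Tas1r3-/- WD replicate 1 is the highest, at 13.6 and 32.9 CPM for the receptors and at 567 and 1459 CPM for the marker sums.

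Between the genotypes, 0 of the 7 genes were differentially expressed, a call that needed at least a 1.5-fold difference with an edgeR adjusted p below 0.05. Of all 14344 genes tested, 0% met this rule. None of the 7 had an unadjusted edgeR p under 0.05, against 5.38% of all genes tested, and DESeq2 called 8 genes, of which 0 were among the 7. The edgeR adjusted p ranged from 0.797 to 0.921. All 7 had WT WD and *Tas1r3*-/- WD libraries that overlapped. Over all genes tested, the groups were apart with *Tas1r3*-/- WD higher in 20.6% and lower in 19.0%.

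All 7 log2 fold changes were above 0 with the 4 libraries, and all 7 were below 0 without WT WD replicate 2. Their median was 0.42 with the 4 libraries and -0.05 without that library, where the median over all genes tested was -0.0057 and 0.0023. Tissue markers also differed between the remaining libraries. Without WT WD replicate 2 the median log2 fold change was -0.45 for hypothalamic neuropeptides, -0.38 for hypothalamic transcription factors and 0.66 for thalamus markers. The part of this in the values of the 7 genes was not tested. Leaving out WT WD replicate 1 instead, edgeR called *Th*, *Ddc*, *Slc18a2*, *Slc6a3* and *Hdc* higher in *Tas1r3*-/- WD, 5 of the 7, beside 7.55% of all genes tested in that fit. In that comparison the only WT WD library is the one low in hypothalamic markers. Without WT WD replicate 2 the 95% intervals narrowed for all 7 genes, and they held 0 for every gene but *Hdc*. The labels do not say that each library is a separate animal, and the study's methods state more mice in a group than there are libraries here, so the p-values measure the spread between these libraries.

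**Figure D4:**
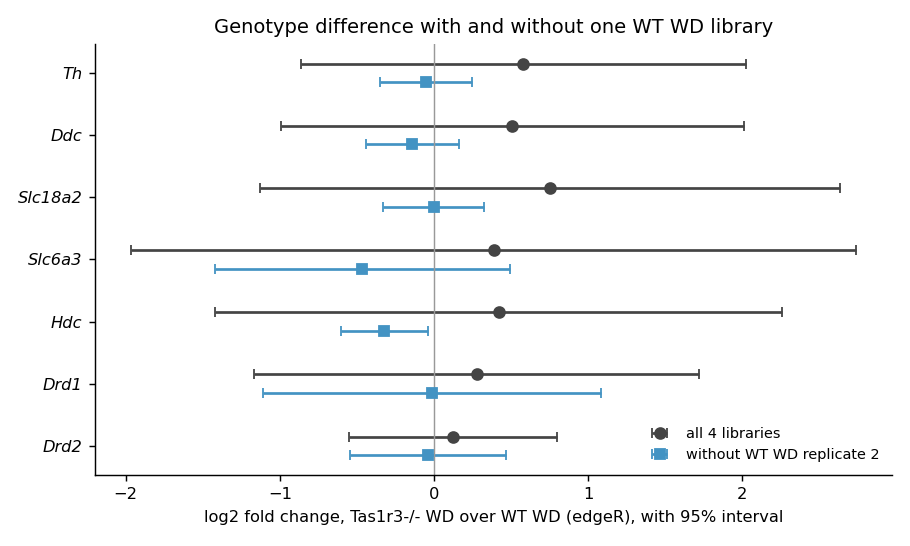
Log2 fold change of each gene in Tas1r3-/- WD over WT WD from edgeR (horizontal axis) with its 95% interval, with the 4 libraries (circles) and without WT WD replicate 2 (squares). With all libraries every interval holds 0, and without WT WD replicate 2 the values move to between -0.46 and -0.0021.

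*Th*, *Ddc*, *Slc18a2*, *Slc6a3* and *Hdc*, 5 of the 7, were lowest in WT WD replicate 2 and at most at 0.5 times the next lowest library, as were 3.97% of all genes tested. A library lowest by any margin was less selective, since 34.6% of all genes tested were lowest in WT WD replicate 2. Relative to the mean of the other libraries, *Slc6a3* was at 13.4%, *Slc18a2* at 18.6%, *Hdc* at 22.7%, *Ddc* at 29.4%, *Th* at 29.9%, *Drd1* at 63.5% and *Drd2* at 80.0%. The presynaptic genes were thus lower than the receptors in that library, although none was as low as *Avp*, a vasopressin gene of magnocellular neurons, which was at 2.30 CPM there and at 197 to 335 CPM elsewhere.

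The other libraries, 1 of WT WD and 2 of *Tas1r3*-/- WD, were also compared with each other. The coefficient of variation over them was 6.02% for *Th*, 5.76% for *Ddc* and 20.6% for *Slc6a3*, where counting alone gives 5.49, 5.96 and 18.6%. It was 46.8% for *Drd1* and 19.6% for *Drd2*, where counting alone gives 13.4 and 7.77%. These libraries come from both genotypes, so the values describe their spread and no test was made of it.

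Levels were compared between genes per kilobase of coding sequence, and in the libraries other than WT WD replicate 2 *Th* was the highest, at 35.0 to 39.2 CPM per kb. *Ddc* followed at 31.7 to 35.2, *Hdc* at 26.1 to 34.1, and *Slc18a2* at 24.7 to 26.5 CPM per coding kb, and each of these ranges overlapped the next. *Drd2* was at 16.6 to 24.7, *Drd1* at 3.66 to 10.2 and *Slc6a3* at 2.17 to 3.23 CPM per coding kb, and the ranges of these 3 did not overlap. Per kilobase of the GENCODE canonical transcript, whose untranslated ends differ much in length, *Hdc* was the highest at 19.0 to 24.9 CPM per kb and *Th* was at 10.8 to 12.1, so the order among the enzymes depends on the length used. In WT WD replicate 2, *Drd2* was the highest of the 7 under both lengths, at 16.7 CPM per coding kb against 11.2 for *Th*.

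Genes whose pattern over the 4 libraries was most like that of *Slc18a2* and *Slc6a3*, the members with the widest range, were ranked by the root mean square difference of centred log2 CPM. For *Slc18a2* they were *Otof* (0.0524), *Gda* (0.0601), *Gpr165* (0.0645), *Rxrg* and *1110032F04Rik*, with *Hdc* at rank 27 of 12416 genes, *Ddc* at 72 and *Th* at 82. For *Slc6a3* they were *Sst* (0.0985), the somatostatin gene, *1110032F04Rik*, *Rxrg*, *Tbx3* and *Gpr165*, with *Hdc* at rank 7 and *Slc18a2* at 24. Such ranks rest on 4 libraries, of which WT WD replicate 2 gives most of the pattern. *Drd1* and *Drd2* ranked far lower for both genes, between 2485 and 3236.

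The other genes of these pathways, 68 in 9 lists, were read in the same way. Of these, 59 were listed and 52 tested, and 0 were differentially expressed by edgeR or by DESeq2. At an unadjusted edgeR p under 0.05 there were 4, among them *Adra1a*, *Foxa1* and *Lmx1a*. The groups did not overlap for 18 of the 52, with *Tas1r3*-/- WD higher in 10 (19.2%) and lower in 8 (15.4%), beside 20.6 and 19.0% of all genes tested. Their median log2 fold change was 0.05, and 0.06 without WT WD replicate 2.

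Companions of *Hdc* in tuberomammillary neurons, which also make GABA, shared its low level in WT WD replicate 2. All 6 listed were lowest there, with a sum of 149 CPM against 1116 to 1153 CPM in the other libraries. *Gad1*, a GABA synthesis enzyme of many hypothalamic neurons, was at 401 and 46.0 CPM in WT WD replicates 1 and 2, and at 411 and 421 CPM in *Tas1r3*-/- WD replicates 1 and 2. *Gad2*, the other such enzyme, was at 445, 69.2, 479 and 475 CPM, and *Hcrtr2*, the orexin receptor of histamine neurons, at 10.5, 2.96, 11.1 and 10.7 CPM, in the same order. Without WT WD replicate 2 the log2 fold changes of these 3 were 0.05, 0.10 and 0.06.

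Enzymes that make the cofactor of TH did not share its pattern. Of 6 tested, 3 had a positive and 3 a negative log2 fold change, with a median of 0.0060, and their summed level in WT WD replicate 2 was 95.7% of the mean of the other libraries. *Gch1*, the first enzyme of cofactor synthesis, was at 5.14 and 0.82 CPM in WT WD replicates 1 and 2, and at 8.34 and 2.62 CPM in *Tas1r3*-/- WD replicates 1 and 2, and so was low with *Th*. It is named for this reason, after its values were seen. The genes of the noradrenaline and adrenaline steps, *Dbh* and *Pnmt*, were not among the genes analysed here, nor was the noradrenaline transporter *Slc6a2*.

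Among 5 tested genes of monoamine transport, *Sv2c*, a synaptic vesicle protein, was at 21.9 and 6.58 CPM in WT WD replicates 1 and 2, and at 29.2 and 27.8 CPM in *Tas1r3*-/- WD replicates 1 and 2. Its log2 fold change was 1.00 (SE 0.55, edgeR adjusted p = 0.757), or 0.38 when WT WD replicate 2 was left out. Of 7 breakdown genes, 4 were highest and 0 lowest in WT WD replicate 2, and *Hnmt*, which inactivates histamine, was at 96.0% of the mean of the other libraries. The largest departure was that of *Maob*, a monoamine oxidase found largely in glia, which was at 43.5, 119, 41.5 and 42.5 CPM in WT WD replicates 1 and 2 and *Tas1r3*-/- WD replicates 1 and 2. Its log2 fold change was -0.95 with the 4 libraries and -0.05 without WT WD replicate 2.

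Other amine receptors showed no single pattern. *Hrh3*, the histamine autoreceptor, was at 85.2 and 182 CPM in WT WD replicates 1 and 2, and at 68.1 and 79.1 CPM in *Tas1r3*-/- WD replicates 1 and 2, so it was highest in the library where *Hdc* was lowest. It is also expressed in thalamus and cortex. *Drd5*, the other receptor of the D1 class, was at 2.06, 7.73, 2.89 and 3.32 CPM in the same order. Of the adrenergic receptors, *Adra1a* was at 7.37, 5.26, 11.5 and 10.7 CPM (log2 fold change 0.81, SE 0.28, edgeR adjusted p = 0.757) and *Adrb1* at 11.1, 34.5, 8.34 and 10.3 CPM.

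Markers of midbrain dopamine neurons, 8 of 10 listed and led by *Nr4a2*, *Ntsr1* and *Lmx1b*, were lowest in WT WD replicate 2 for 5 of the 8. Their full sum was nevertheless highest in WT WD replicate 2, at 89.0 CPM against 57.6 to 79.1 CPM elsewhere. Without *Nr4a2*, which was at 69.9 CPM in WT WD replicate 2 and at 12.5 to 19.1 CPM elsewhere, they summed to 19.1 CPM there against 45.1 to 60.0 CPM. *Lmx1a*, one of these factors, which the posterior hypothalamus also expresses, was at 2.74 and 1.81 CPM in WT WD replicates 1 and 2, and at 6.57 and 7.52 CPM in *Tas1r3*-/- WD replicates 1 and 2. Its log2 fold change was 1.62 (SE 0.37, edgeR adjusted p = 0.757), and 1.35 without WT WD replicate 2 (edgeR adjusted p = 0.258). *Lmx1b* was at 5.83, 2.96, 7.22 and 9.80 CPM and *Foxa1* at 2.23, 0.822, 4.49 and 4.02 CPM in the same order. *En1* and *En2*, of the same list, were lower in both *Tas1r3*-/- WD libraries than in both WT WD libraries. *En1* was at 0.514, 0.493, 0.481 and 0.175 CPM and *En2* at 1.20, 1.32, 0.321 and 0.525 CPM, with too few counts to be tested. *Pitx3*, which defines midbrain dopamine neurons, was not among the genes analysed here, and *Th*, *Ddc* and *Slc6a3* did not share the order of *Lmx1a* in the libraries.

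Among other cells that could hold *Ddc* and *Slc18a2*, serotonin neurons had 3 of 6 markers listed, *Htr1a*, *Gata2* and *Tph2*, with sums of 10.5 to 33.8 CPM. *Tph2*, their synthesis enzyme, was at 0.171, 0, 0.641 and 1.40 CPM in WT WD replicates 1 and 2 and *Tas1r3*-/- WD replicates 1 and 2, where a count of 0 allows 0.485 to 0.524 CPM, and *Slc6a4* and *Fev* were not among the genes analysed here. The part of serotonin neurons in *Ddc* and *Slc18a2* was not tested.

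**Figure D5:**
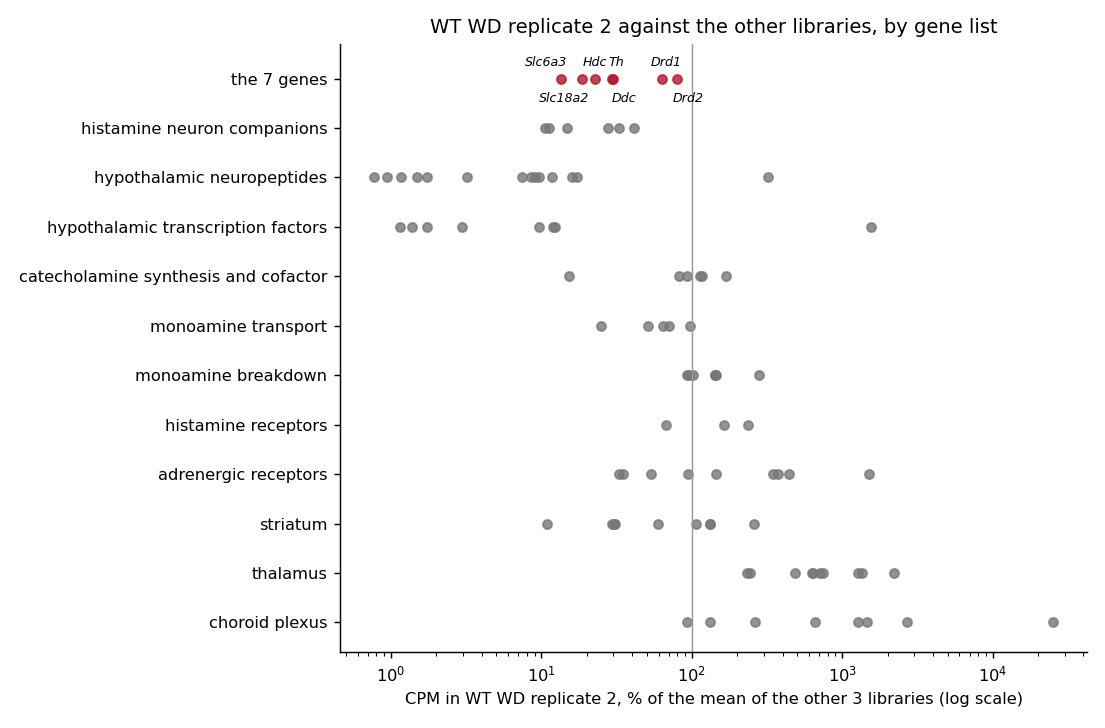
Level in WT WD replicate 2 as a percentage of the mean of the other 3 libraries (horizontal log axis), 1 point a gene, for the 7 genes (named, top line) and for pathway and marker lists. Genes at 0 in that library or with a mean under 1 CPM are left out. The 5 presynaptic genes lie at 13.4 to 29.9% and the histamine neuron companions at 10.6 to 41.3%, while thalamus markers lie above 100%.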

How the data were processed

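The authors sequenced barcoded Ion Torrent libraries of ribosomal RNA-depleted mRNA, used Partek Flow to align reads with STAR (build mm39) and to quantify RefSeq release 93, per the methods and the labels. The deposited values are estimated counts for 30930 transcripts without normalization, each transcript with at least 10 over the 4 libraries. Gene names, but no positions, came from the RefSeq annotation of GRCm38.p6 for 30891 transcripts, and the other 39 (0.347 to 2.486% of counts) were left out. Counts were summed per gene and rounded. CPM used TMM factors (0.988 to 1.009). Testing used edgeR 4.0.16 in R 4.3.3 (quasi-likelihood, filterByExpr, Benjamini-Hochberg). Alternatives used DESeq2 1.42.0, limma-trend (limma 3.58.1), RLE or total counts, other filters, a replicate block, transcripts, and each library left out. On data simulated at the trended dispersion of these libraries, the *Tas1r3*-/- WD against WT WD test recovered 37% of 100 genes changed by 1 on the log2 scale and 94% of 100 changed by 2, among 14137 genes. The changed genes were drawn only from those with more counts, and no simulated library stood apart as WT WD replicate 2 does. These shares may therefore not hold for the real libraries, or for genes with few counts such as *Slc6a3*. Positions are from GENCODE M39 on GRCm39, matched by symbol. The genes and lists were chosen with earlier results of these data known. Named are all 7 genes, pathway genes with groups apart and a fold change of at least 1.5 (otherwise the highest of a list), the 3 highest of each marker list, the 5 genes most like the 2 widest members, and exceptions named as such, while some genes that this rule takes are not reported here. *Hnmt*, *Nkx2-1*, *Adora2a*, *Gch1*, *En1*, *En2* and the markers named for their absence were chosen after their values were seen. Figures used matplotlib 3.10.9.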

Additional observations from a re-analysis of the deposited data

How the results depend on the processing

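With 2 libraries a group, 1 library decides the values. The leave-one-out log2 fold changes ranged from -0.052 to 1.73 for *Th*, -0.14 to 1.72 for *Ddc*, -0.0021 to 2.43 for *Slc18a2*, -0.46 to 2.69 for *Slc6a3*, -0.32 to 2.03 for *Hdc*, -0.64 to 0.82 for *Drd1* and -0.20 to 0.37 for *Drd2*. The lowest were without WT WD replicate 2, which turned the direction of all 7 (-0.01 for *Drd1*, -0.04 for *Drd2*), or, for *Drd1* and *Drd2*, without *Tas1r3*-/- WD replicate 1. The edgeR adjusted p without WT WD replicate 1 was 9.46e-05 for *Th*, 1.02e-04 for *Ddc*, 3.27e-05 for *Slc18a2*, 0.0241 for *Slc6a3* and 4.16e-05 for *Hdc*, with the lone WT WD library assumed to vary like the others. The cause was not tested. Differentially expressed genes numbered 0 with edgeR, 8 with DESeq2 (0 of them among the members or lists), and 0 to 2123 with a library left out, above 0 only when WT WD replicate 1 (2123, 82 of them among the members and lists) or WT WD replicate 2 (32) was left out. Of those 32, 3 were in the lists, *Avp*, *Fezf1* and *Lhx6*, named after their values were seen. Genes at an unadjusted p under 0.05 numbered 772, against 393 with DESeq2, 1183 among transcripts, and 93 to 5007 with a library left out (93 and 132 when *Tas1r3*-/- WD replicate 1 or 2 was left out, 5007 and 2012 when WT WD replicate 1 or 2 was). The direction of each member and the absence of a call were unchanged under DESeq2, limma-trend, RLE, total counts and both filters, except that *Slc6a3* had no value with at least 10 counts required in every library. With limma-trend the values moved by over 1.5 times for *Ddc* (0.78), *Slc18a2* (1.18), *Slc6a3* (0.89), *Hdc* (0.84) and *Drd1* (0.13).

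The labels share replicate numbers between the groups. Deviations of same-numbered libraries correlated at 0.0821 over 14344 genes, so the numbers were not taken as pairs. With the replicate block the log2 fold changes were 0.79 for *Th*, 0.74 for *Ddc*, 1.11 for *Slc18a2*, 0.76 for *Slc6a3*, 0.78 for *Hdc*, 0.16 for *Drd1* and 0.11 for *Drd2*, 0 genes were differentially expressed and 667 had an unadjusted p under 0.05.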
